A study of Homo sapiens with 52 samples.

Results

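Macrophages derived from the human monocytic leukaemia line THP-1 were compared after co-culture with either of 2 liver tumour lines, HepG2 or Huh6. The members are 6 of the 52 RNA-seq libraries of the study: 3 of THP-1 sorted from HepG2 co-cultures and 3 of THP-1 sorted from Huh6 co-cultures, chosen by their labels. The study uses both tumour lines as models of hepatoblastoma, a liver cancer of early childhood. In every group THP-1 had been exposed to phorbol 12-myristate 13-acetate (PMA) at 80 ng/ml for 48 h and rested for 48 h. Untreated tumour cells were then added directly onto the THP-1 cells, and after 24 h of shared culture THP-1 was sorted and its RNA isolated. A further 12 libraries come from co-cultures with tumour cells that had received 5 or 10 µM of iMDK, an inhibitor of the growth factor midkine, for 24 h beforehand, and 3 come from THP-1 cultured alone. Levels in the tumour lines come from libraries of HepG2 and Huh6 grown without THP-1. Those cells were controls or had received 5 or 10 µM of iMDK, with a treatment time of 48 h. The tumour lines were seeded at about 550000 (HepG2) and 250000 (Huh6) cells per well, but the ratio to THP-1 cells is not stated. The tumour line and the number of cells seeded therefore cannot be told apart. THP-1 is a single cell line, and nothing says whether the 3 libraries of a group came from separate cultures, so the p-values measure only the spread between these libraries.

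Macrophages read their surroundings through surface receptors that activate or restrain them, through Toll-like receptors and the transcription factor NF-kappaB, and through oxygen sensing by hypoxia-inducible factors. Beside a tumour they can shift between inflammatory and tissue-repair programmes, clear debris through scavenger receptors, and export cholesterol under control of the liver X receptors. PMA brings THP-1 cells largely out of the cell cycle and onto the culture surface, which makes them a common model of such macrophages.

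The macrophages from HepG2 co-cultures carried more of the inhibitory receptor transcripts FCGR2B and CD300A, and more of the hypoxia-responsive MXI1, than those from Huh6 co-cultures. They carried less CYP1B1, TDO2, S100A8, S100A9 and CD163. In the same libraries the hypoxia-responsive BNIP3 and ENO2, chosen after their values were seen, were higher, and most cell-cycle transcripts measured were lower. Tumour cells express these genes more, so the differences cannot be credited to the macrophages alone. With the largest estimate of tumour RNA taken off, the BNIP3 difference no longer passed and that of ENO2 did. Most of these differences had the same sign when the tumour cells had been given iMDK, at reduced size.

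The sorted libraries were not free of tumour RNA, and the HepG2 co-cultures held more of it. Hepatoblastoma markers summed to 3220 to 3830 counts per 1e6 counts of the library (CPM) in the HepG2 co-culture libraries and to 184 to 571 CPM in the Huh6 co-culture libraries, against 59.2 to 71.4 CPM in THP-1 alone. The excess of each marker over THP-1 alone, as a percent of its level in the matching tumour line, had a median of 7.25, 9.72 and 8.55% in the HepG2 co-cultures over 21 markers. The same median was 1.69, 0.563 and 0.361% in the Huh6 co-cultures over 19 markers. The groups did not overlap, at 8.51 ± 1.23% and 0.871 ± 0.716% (SD, n = 3 each), and the exact permutation test gave p = 0.1, the smallest that 3 against 3 allows. Single markers spread widely: in the HepG2 co-cultures albumin (ALB) stood at 14, 16.7 and 14.3% of its tumour-line level and alpha-fetoprotein (AFP) at 0.857, 1.09 and 0.978%. Among the Huh6 co-cultures library 1 held the most tumour RNA.

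**Figure D1:**
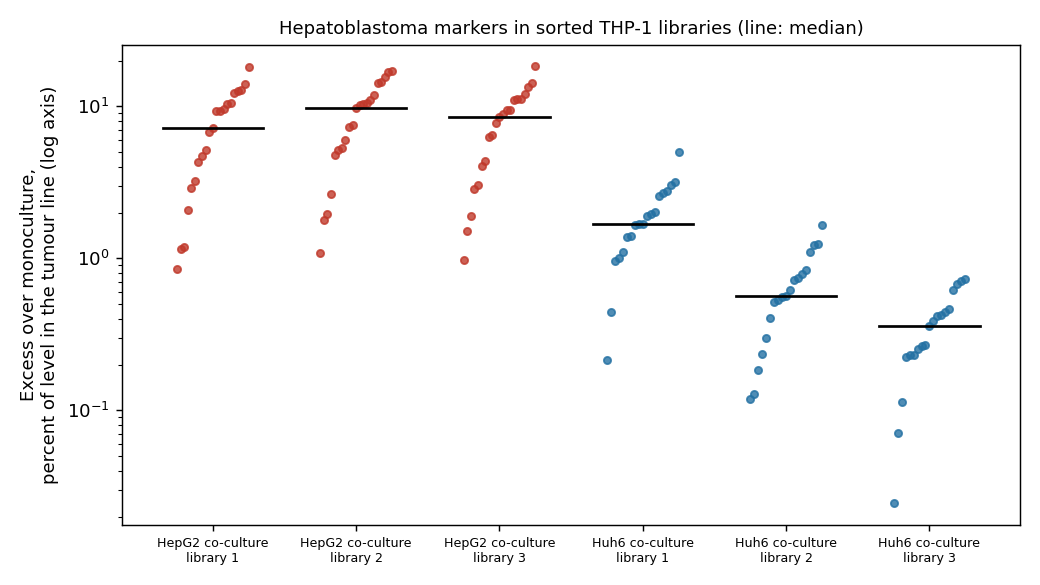
Excess of each hepatoblastoma marker over THP-1 alone, as a percent of its level in the matching tumour line (log axis), in the 3 HepG2 co-culture libraries and the 3 Huh6 co-culture libraries. Each point is a marker and each line the library's median, which runs from 7.25 to 9.72% with HepG2 and from 0.361 to 1.69% with Huh6.

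Macrophage markers were present at like sums, 7020 to 7450 CPM with HepG2, 6820 to 7530 CPM with Huh6 and 6970 to 7210 CPM alone. Of 20 such genes, 16 exceeded 1 CPM in all 6 libraries, while CD68, CYBB and FCGR1A had no count there. SPP1 and TREM2 had no count in any of the 21 THP-1 libraries, and CCL2 and MRC1 had 14 and 91 counts over all of them, so none of the 4 was tested. Markers of fibroblasts and endothelium summed to 608 to 695 CPM with HepG2, 625 to 697 CPM with Huh6 and 691 to 820 CPM alone, and those of lymphocytes to 16.5 to 22.3, 16 to 22.3 and 20.2 to 22.1 CPM. Depth ran from 14019929 to 16202344 counts in the 6 libraries, where 3 counts amount to 0.185 to 0.214 CPM.

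Because of the tumour RNA, 8099 of the 15500 genes tested were set apart: their mean CPM was higher in HepG2 or Huh6 cells grown alone than in THP-1 grown alone. The other 7401 genes are at least as high in THP-1, and the account below rests on them unless a gene is called set apart. At the border lay STIM1, at 115.9 CPM both in the higher tumour line and in THP-1 and not set apart, and COG7, at 35.3 CPM in both and set apart. A second set of values came from counts from which each library's estimated tumour reads had been subtracted.

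Of the 7401 genes not set apart, 619 were higher (8.36%) and 1186 lower (16%) with HepG2 than with Huh6 at an adjusted p below 0.05 (edgeR quasi-likelihood test, replicate number as block, Benjamini-Hochberg over all 15500 genes). At least 2-fold differences were found for 84 and 80 of them. The median log2 fold change over the 7401 genes was -0.03. The balance of directions depended on the scaling: 34.3% of the called genes were higher here, 44.9% when libraries were scaled on the genes not set apart, and 65.1% after subtraction of tumour reads, which moved the median to 0.08. Genes named below from the lists were also called in the same direction after subtraction unless said otherwise. Without the replicate block 294 genes were higher and 581 lower. The lower genes numbered 712 without HepG2 co-culture library 2 and 775 without Huh6 co-culture library 2. Among the 8099 set-apart genes 1539 were higher (19%) and 1162 lower (14.3%), and 802 of the higher ones were at least 2-fold. After subtraction 15.8% of the genes not set apart were higher and 8.44% lower. The lower set-apart genes numbered 591 without the block, 687 without HepG2 co-culture library 2, and 769 and 674 without Huh6 co-culture libraries 1 and 2.

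**Figure D2:**
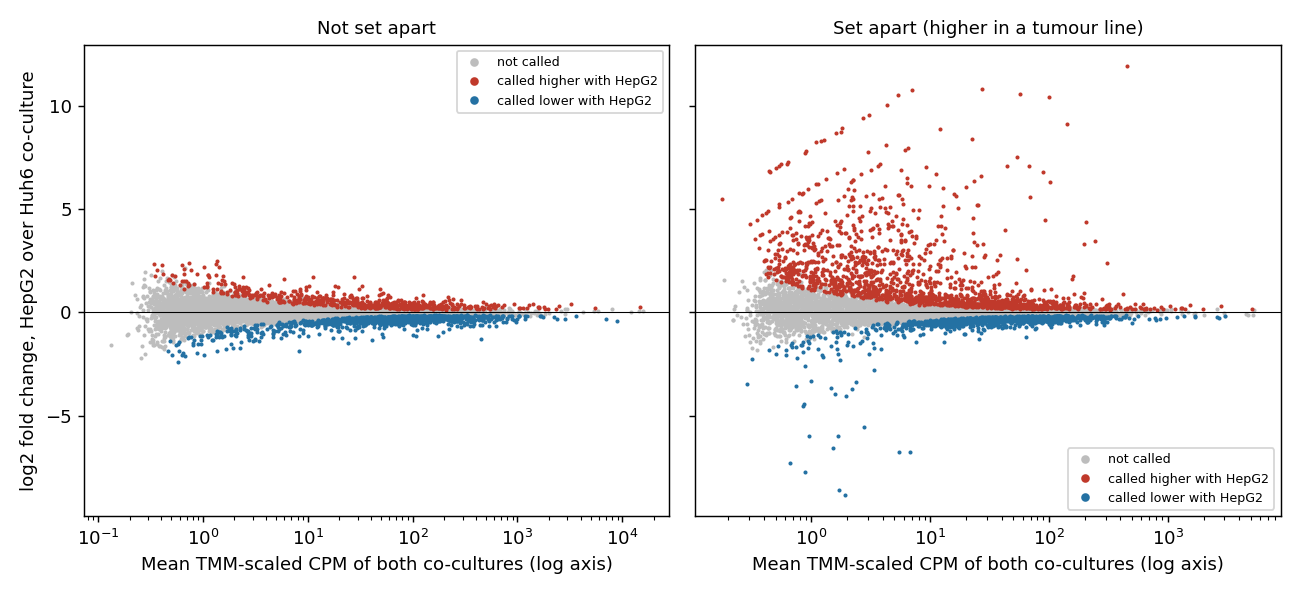
Log2 fold change, HepG2 over Huh6 co-culture, against mean TMM-scaled CPM of both co-cultures (log axis), for 7401 genes not set apart and 8099 set-apart genes. Each point is a gene, coloured where it was called higher or lower. The large positive values lie almost wholly among the set-apart genes, and the genes not set apart mostly differ by less than 2-fold.

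FCGR2B, the inhibitory Fc gamma receptor, led the genes that were higher with HepG2. TMM-scaled CPM is CPM with library sizes adjusted by edgeR's trimmed mean of M values. It is used below for single genes in THP-1 libraries, while tumour-line levels and marker sums are scaled by library size only. The TMM-scaled CPM of FCGR2B was 18.4, 16.7 and 16.2 with HepG2, 6.42, 4.78 and 4.54 with Huh6, and 3.12, 2.45 and 2.61 in THP-1 alone. The groups did not overlap, and both tumour lines had no count of the gene. The log2 fold change was 1.73 ± 0.20 (SE of the fit here and below, 3 libraries each, adjusted p = 2.93e-07). The gene lies at chr1:161663147-161678654 in GRCh38 beside near-identical FCGR2 relatives, and how their shared reads were split is not known.

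CD300A, another inhibitory receptor of myeloid cells, stood at 30.78, 50.95 and 45.72 CPM with HepG2, 13.95, 11.55 and 13.69 CPM with Huh6 and 8.91 to 9.64 CPM alone. It lies at chr17:74466399-74484796 and was near 0 in both tumour lines. All 3 HepG2 co-cultures were above all Huh6 co-cultures, with a log2 fold change of 1.70 ± 0.17 (adjusted p = 2.31e-08). Over all genes not set apart, 24.9% had groups that did not overlap.

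CD70, the ligand of the costimulatory receptor CD27, was at 26.2, 30.5 and 19.9 CPM with HepG2 and at 12.7, 9.49 and 9.70 CPM with Huh6, a log2 fold change of 1.27 ± 0.15 (adjusted p = 5.55e-07). TNFSF9, the ligand of the costimulatory receptor 4-1BB, rose less, by 0.50 ± 0.11 on the log2 scale. SIRPA, the receptor for the tumour signal CD47, fell to 742, 756 and 964 CPM with HepG2, against 1009, 1161 and 1228 CPM with Huh6 (log2 fold change -0.47 ± 0.06, adjusted p = 9.06e-07). Of the 13 checkpoint and costimulation genes not set apart, 2 were called higher and 4 lower, against 8.36 and 16% of all genes not set apart. After subtraction 5 were higher and 2 lower, against 15.8 and 8.44%. The checkpoint ligand CD274 reached at most 0.88 CPM and did not pass (adjusted p = 0.118), but it passed without HepG2 co-culture library 1 (log2 fold change 2.15, adjusted p = 0.0308). CD86 had a log2 fold change of 0.15 (adjusted p = 0.228) as deposited and of 0.31 (adjusted p = 0.0158) after subtraction. HLA-DRA stayed below 1 CPM in all 6 libraries.

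Other genes among the 12 highest were the transcription factor genes ZBTB20 (log2 fold change 1.28) and DBP (1.12), a clock-controlled factor. APLN, which encodes the peptide ligand apelin, stood at 1.07. YPEL3 stood at 1.15, ELANE, which encodes neutrophil elastase, at 1.03, the long non-coding RNA genes LINC02244 and LINC02476 at 1.26 and 1.23, and the antisense gene TNFRSF14-AS1 at 1.03. The libraries were made with a kit that marks strand, but whether counting used it is not given, so TNFRSF14-AS1 and its partner gene cannot be told apart. ELANE and the related PRTN3 (0.56 ± 0.16, adjusted p = 0.0076) mark undifferentiated myeloid cells. That marker list had 2 of 7 genes called higher (8.36% of all genes not set apart were) and none lower, with 78.1 to 95.2 CPM in sum with HepG2, 71.8 to 77.1 CPM with Huh6 and 40.3 to 50.8 CPM alone. Its part in the other results was not tested.

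**Figure D3:**
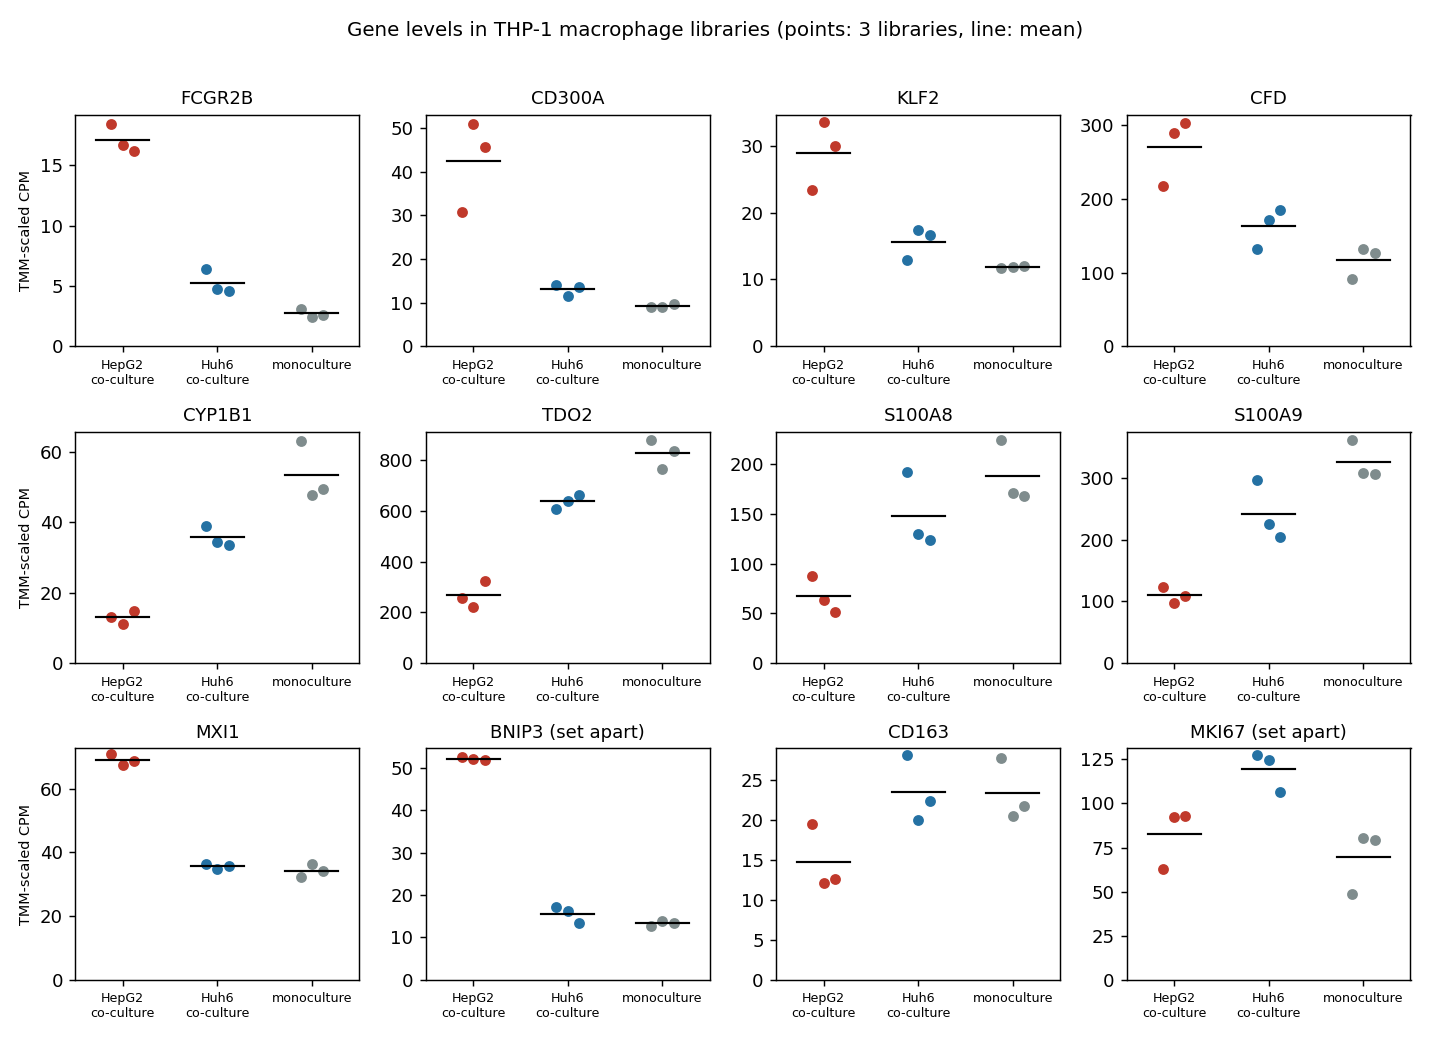
TMM-scaled CPM of 12 genes in the 3 HepG2 co-culture, 3 Huh6 co-culture and 3 monoculture libraries. Points are libraries and lines are means. FCGR2B, CD300A, MXI1 and BNIP3 are higher with HepG2 than with Huh6, and CYP1B1, TDO2, S100A8, S100A9, CD163 and MKI67 lower, without overlap of the 2 co-cultures.

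Most genes of the hypoxia and glycolysis list were called higher with HepG2. Of its 5 members not set apart, 4 were called higher, against 8.36% of all genes not set apart, and none lower, with a median log2 fold change of 0.63. MXI1, an antagonist of the transcription factor MYC, had 70.8, 67.4 and 68.9 CPM with HepG2, 36.5, 35.0 and 35.6 CPM with Huh6 and 32.4 to 36.3 CPM alone. Huh6 co-cultures and THP-1 alone thus lay close together and below the HepG2 co-cultures. The log2 fold change of MXI1 was 0.95 ± 0.10 (adjusted p = 3.29e-08). The mitophagy receptor gene BNIP3L rose by 0.70 ± 0.08, the stress-responsive NDRG1 by 0.63 ± 0.11 and the angiogenic factor VEGFA by 0.33 ± 0.07 on the log2 scale, while the fifth, PFKFB4, gave -0.03 (adjusted p = 0.808).

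The other 18 members were set apart, since tumour cells express them more. As deposited, 14 of the 18 were higher and none lower, against 19% of all set-apart genes higher. After subtraction of tumour reads 12 were higher and none lower, against 11.4% higher. When the marker of the highest ratio set the share, 8 were higher and 2 lower (9.13 and 39.3% of all set-apart genes). BNIP3, ENO2, LDHA and SLC2A1 were chosen after their values were seen. BNIP3, a mitophagy receptor, had 52.6, 52.2 and 51.8 CPM with HepG2, 17.3, 16.1 and 13.5 CPM with Huh6 and 12.7 to 13.9 CPM alone. Its log2 fold change was 1.75 ± 0.20 (adjusted p = 2.38e-07) as deposited, 1.57 (adjusted p = 4.25e-05) after subtraction and 1.15 (adjusted p = 0.0544) with the highest ratio.

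ENO2, a glycolytic enolase, had 83.8, 85.2 and 60.9 CPM with HepG2 and 33.2, 24.8 and 26.8 CPM with Huh6. Grown alone, the Huh6 line had 227 CPM of ENO2 and the HepG2 line 91.1 CPM. The log2 fold change of ENO2 was 1.45 ± 0.13 (adjusted p = 2.92e-09), and 1.66 (adjusted p = 1.29e-05) with the highest ratio. LDHA, which makes lactate from pyruvate, had 528, 555 and 531 CPM with HepG2 and 347, 288 and 256 CPM with Huh6, a log2 fold change of 0.88 ± 0.13 (adjusted p = 8.66e-06) that was 0.42 (adjusted p = 0.0922) with the highest ratio. SLC2A1, a glucose transporter at 1248 CPM in HepG2 cells, had a log2 fold change of 1.10 as deposited and -1.79 (adjusted p = 0.0637) after subtraction, so its sign depended on the tumour share taken off.

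The promoters of these 3 genes are shown because the genes were higher together, with the core of the hypoxia response element in capitals. The sequences are RefSeq's for GRCh38.p14, from 250 bases before to 50 after the annotated start, 5′ to 3′, at BNIP3 chr10:131981874-131982173 on the minus strand, LDHA chr11:18394313-18394612 on the plus strand and ENO2 chr12:6914330-6914629 on the plus strand. Capitals mark ACGTG or GCGTG on either strand, and an ACGTG on each strand overlaps in CACGTG.
BNIP3: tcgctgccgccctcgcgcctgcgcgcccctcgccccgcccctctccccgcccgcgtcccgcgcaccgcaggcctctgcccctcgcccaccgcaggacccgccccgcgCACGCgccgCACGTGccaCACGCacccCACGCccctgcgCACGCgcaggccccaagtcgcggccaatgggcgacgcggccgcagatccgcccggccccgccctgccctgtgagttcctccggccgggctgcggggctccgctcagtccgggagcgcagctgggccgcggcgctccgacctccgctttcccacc
LDHA: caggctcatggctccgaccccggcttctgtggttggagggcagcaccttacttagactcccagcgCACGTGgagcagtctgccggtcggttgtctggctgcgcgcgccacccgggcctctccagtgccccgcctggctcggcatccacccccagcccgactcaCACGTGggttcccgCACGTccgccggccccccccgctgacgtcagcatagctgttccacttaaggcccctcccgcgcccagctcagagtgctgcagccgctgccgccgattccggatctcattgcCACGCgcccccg
ENO2: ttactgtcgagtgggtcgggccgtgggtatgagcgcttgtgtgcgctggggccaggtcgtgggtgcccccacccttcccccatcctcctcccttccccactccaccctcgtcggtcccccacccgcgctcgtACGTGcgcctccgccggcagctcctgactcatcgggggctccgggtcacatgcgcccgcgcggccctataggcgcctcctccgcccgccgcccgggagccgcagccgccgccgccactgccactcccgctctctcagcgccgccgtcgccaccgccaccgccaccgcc
BNIP3 and LDHA hold 6 matches each, counting both strands of an overlapping pair, and ENO2 holds 1. Of the 21 hypoxia and glycolysis genes with a promoter in the table, 17 hold ACGTG or GCGTG in the first one listed (81%), and the same holds for 48.4% of all 35116 promoters. The match is a property of the letters only.

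Cell-cycle transcripts were lower with HepG2. Tumour cells express them more, and the part of tumour RNA in their levels was not tested. All 28 genes of the list were set apart, and 24 were called lower and none higher, against 14.3% of set-apart genes lower. MKI67, the proliferation marker Ki-67, had 62.6, 92.1 and 92.6 CPM with HepG2, 127, 125 and 106 CPM with Huh6 and 48.7, 80.3 and 79.2 CPM alone. The HepG2 co-cultures lay below every Huh6 co-culture, at a log2 fold change of -0.56 ± 0.13 (adjusted p = 0.00222). CDK1, the kinase that drives mitosis, had 16.2, 21.8 and 23.2 CPM with HepG2, 30.1, 41.8 and 37.1 CPM with Huh6 and 14.6 to 26.7 CPM alone (log2 fold change -0.84 ± 0.11, adjusted p = 2.49e-06). The DNA methylation maintenance factor UHRF1 (-1.06 ± 0.14) and the replication licensing factor CDC6 (-0.88 ± 0.12) showed the same direction, and CDT1, TYMS, AURKB and BUB1 did not pass. After subtraction 27 of the 28 were called lower (24.7% of all set-apart genes were). The subtraction took a larger share off the HepG2 libraries, which pushes genes high in tumour cells towards lower with HepG2. That count is therefore not a separate test. The cell-cycle genes named were chosen after their values were seen.

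**Figure D4:**
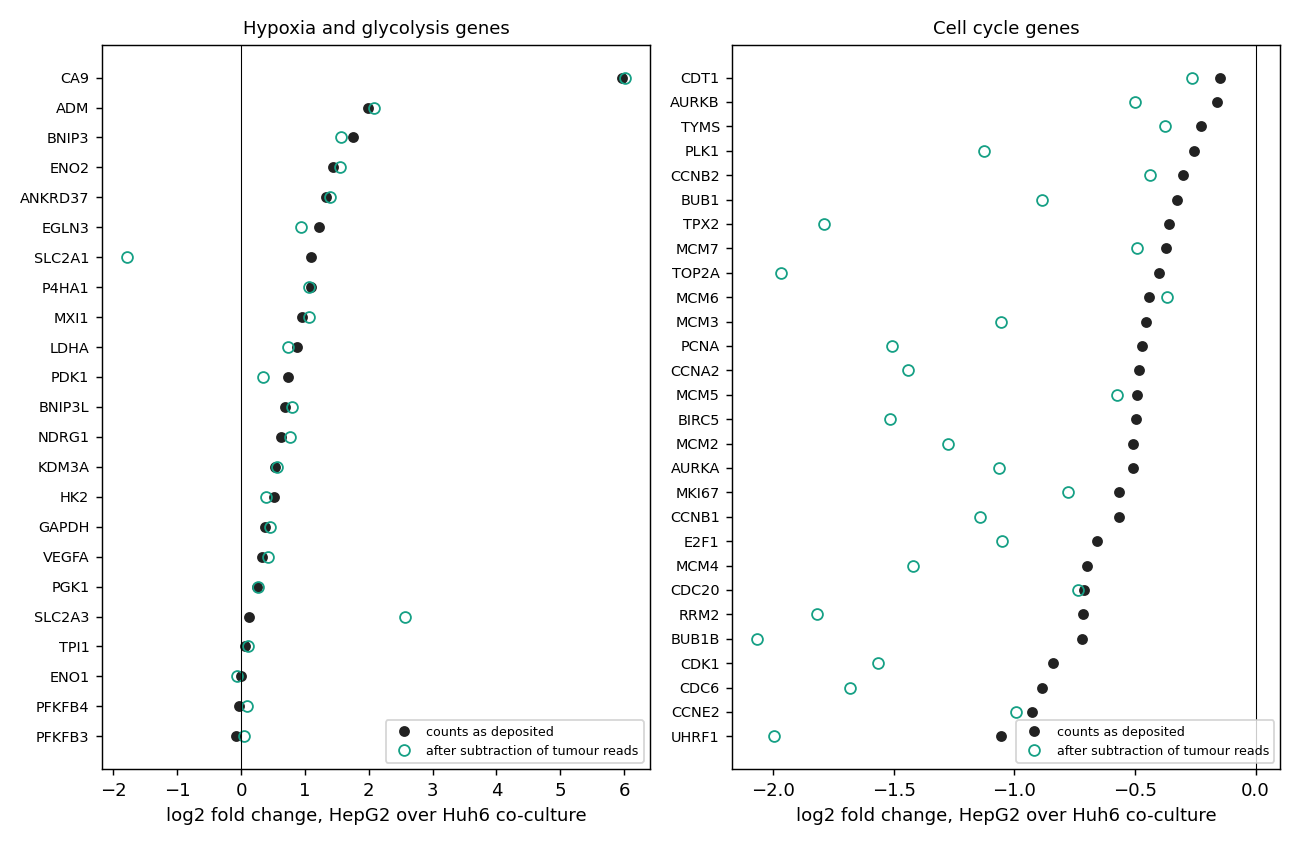
Log2 fold change, HepG2 over Huh6 co-culture, of the tested hypoxia and glycolysis genes and cell-cycle genes. Filled points use the counts as deposited and open points the counts after subtraction of tumour reads. Hypoxia genes lie mostly right of 0 in both, and all 28 cell-cycle genes lie left of 0 in both.

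S100A8 and S100A9 were lower with HepG2. They encode the subunits of calprotectin, an alarmin of myeloid cells. S100A8 had 87.8, 63.7 and 51.4 CPM with HepG2, 191.9, 129.4 and 123.3 CPM with Huh6 and 168 to 224 CPM alone, a log2 fold change of -1.13 ± 0.09 (adjusted p = 8.78e-10). S100A9 had 124, 97.1 and 109 CPM with HepG2, 297, 226 and 204 CPM with Huh6 and 306 to 362 CPM alone, a log2 fold change of -1.13 ± 0.09 (adjusted p = 7.01e-10). For both genes all HepG2 co-cultures lay below all Huh6 co-cultures, and the tumour lines held at most 0.04 CPM of either. Of the 8 annexin and S100 genes not set apart, 1 was higher and 2 lower, against 8.36 and 16% of all genes not set apart.

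The promoters of this pair of neighbouring genes are shown because both fell by a like amount. They are RefSeq's first-listed promoters for GRCh38.p14, at S100A8 chr1:153391139-153391438 on the minus strand and S100A9 chr1:153357604-153357903 on the plus strand. Capitals mark TTNNGNAA on either strand, a loose form of the motif of C/EBP factors, which regulate myeloid genes.
S100A8: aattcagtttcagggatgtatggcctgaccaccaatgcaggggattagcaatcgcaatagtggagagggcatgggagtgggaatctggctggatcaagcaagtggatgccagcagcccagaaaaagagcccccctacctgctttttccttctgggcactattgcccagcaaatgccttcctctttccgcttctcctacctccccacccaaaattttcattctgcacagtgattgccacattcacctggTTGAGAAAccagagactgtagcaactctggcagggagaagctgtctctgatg
S100A9: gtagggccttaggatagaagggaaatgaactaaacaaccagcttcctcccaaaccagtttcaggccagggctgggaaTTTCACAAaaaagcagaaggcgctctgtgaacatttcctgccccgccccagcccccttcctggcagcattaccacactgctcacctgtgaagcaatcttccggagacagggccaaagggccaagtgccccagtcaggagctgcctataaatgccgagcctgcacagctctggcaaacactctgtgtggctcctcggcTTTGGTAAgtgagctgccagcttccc
S100A8 holds 1 match and S100A9 holds 2, while 36.8% of all 35116 promoters hold at least 1. The gene of the factor C/EBP beta, CEBPB, which was set apart, had a log2 fold change of 0.41 ± 0.09 (adjusted p = 0.000599).

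IL1B, the inflammatory cytokine interleukin-1 beta, had 17.1, 8.57 and 8.14 CPM with HepG2, 26.7, 14.6 and 12.1 CPM with Huh6 and 98.79, 26 and 29.18 CPM alone. The groups overlapped, since library 1 was the highest in each, and the log2 fold change was -0.67 ± 0.19 (adjusted p = 0.0095). It missed the threshold after subtraction (-0.52, adjusted p = 0.0546), without HepG2 co-culture library 1 (-0.47, adjusted p = 0.12) and without Huh6 co-culture library 2 (-0.48, adjusted p = 0.099). The call of IL1B also rested on the replicate block. Without the block it gave -0.66 (adjusted p = 0.519), and with 6 libraries and no block -0.64 (adjusted p = 0.204). The interleukin-1 receptor antagonist gene IL1RN fell as well, to 56.6, 66.4 and 67.6 CPM with HepG2, against 84.8, 96.7 and 94.7 CPM with Huh6 (log2 fold change -0.54 ± 0.10, adjusted p = 0.00017). TNF gave -0.46 (adjusted p = 0.17) and the set-apart chemokine gene CXCL8 -0.61 (adjusted p = 0.107). CXCL8 passed without Huh6 co-culture library 1 (-0.87, adjusted p = 0.0351) and after subtraction (-1.385, adjusted p = 0.0245). Of 11 inflammatory cytokine genes not set apart, 3 were lower (against 16% of all genes not set apart) and none higher, with a median log2 fold change of -0.28. After subtraction 1 of the 11 was lower, against 8.44%.

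Among the NF-kappaB feedback genes not set apart, 4 of 8 were lower and 1 higher (16 and 8.36% of all genes not set apart). After subtraction 3 were lower and 1 higher, against 8.44 and 15.8%. NFKBIE, an inhibitor of NF-kappaB, had 56.7, 57.6 and 57.0 CPM with HepG2, 84.6, 101 and 87.7 CPM with Huh6 and 102 to 115 CPM alone. All 3 HepG2 co-cultures lay below the Huh6 ones, at a log2 fold change of -0.67 ± 0.08 (adjusted p = 2.42e-07). BCL3 and ICAM1, an NF-kappaB cofactor and an adhesion molecule, had log2 fold changes of -0.38 and -0.39, with overlapping groups. TRAF1, a TNF receptor adaptor, rose by 0.58 on the log2 scale (adjusted p = 0.012), with adjusted p = 0.06 and 0.54 on the log2 scale without Huh6 co-culture library 1. Of the Toll-like receptors and their partners, TLR2 (-0.46 ± 0.08, adjusted p = 0.000125), the adaptor MYD88 (-0.31) and TLR1 (-0.27, not called after subtraction) were lower, of 7 measured. Among all genes not set apart 16% were lower. CD14, the lipopolysaccharide co-receptor, gave -0.16 (adjusted p = 0.0835).

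CYP1B1 and TDO2 had the clearest decreases in metabolism. CYP1B1, a cytochrome P450 induced by the aryl hydrocarbon receptor and located at chr2:38066973-38109902, had 13.1, 11.2 and 14.7 CPM with HepG2, 39.1, 34.6 and 33.7 CPM with Huh6 and 47.8 to 63.3 CPM alone. TDO2, a tryptophan dioxygenase located at chr4:155854738-155920406, had 256, 223 and 323 CPM with HepG2, 607, 640 and 663 CPM with Huh6 and 766 to 879 CPM alone. The 3 groups did not overlap for either gene, with HepG2 lowest and THP-1 alone highest. The log2 fold changes were -1.46 ± 0.12 for CYP1B1 (adjusted p = 6.52e-10) and -1.26 ± 0.11 for TDO2 (adjusted p = 2.02e-09). The list of tryptophan and arginine metabolism had 4 of 6 genes lower (16% of all genes not set apart were) and none higher. After subtraction 2 were lower, against 8.44%, and 1 higher. The other 2 of the 4, the kynurenine enzyme gene KMO and the amino-acid oxidase gene IL4I1, gave -0.32 (adjusted p = 0.122) and -0.23 (adjusted p = 0.0972) after it.

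The remaining genes of the 12 lowest were SLC9A9, an endosomal sodium-proton exchanger (log2 fold change -1.33), the guanylate-binding protein GBP1 (-1.24), the neuron navigator NAV3 (-1.22), the membrane-skeleton linker EPB41L3 (-1.22), the microRNA host gene MIR4713HG (-1.18), DYNLT5 (-1.17), the potassium channel KCNH4 (-1.13) and the matrix protein OLFML2B (-1.13). GBP1 had 2.13, 3.68 and 4.41 CPM with HepG2, 6.98, 6.92 and 9.36 CPM with Huh6 and 2.74 to 4.90 CPM alone, so for this gene the Huh6 co-cultures stood apart from both. Its relative GBP2 went the other way, with 16.5, 18.2 and 21.3 CPM with HepG2, 9.51, 12.8 and 14.3 CPM with Huh6 and 4.61 to 6.79 CPM alone (0.62 ± 0.11, adjusted p = 9.02e-05). The GBP genes are alike in sequence, and how shared reads were split is not known.

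Phagocytic and scavenger receptors differed in both directions, with 2 of 8 genes not set apart higher and 4 lower, against 8.36 and 16% of all such genes. CD163, the haemoglobin scavenger receptor, had 19.4, 12.1 and 12.6 CPM with HepG2, 28.2, 19.9 and 22.4 CPM with Huh6 and 20.4 to 27.8 CPM alone, a log2 fold change of -0.69 ± 0.11 (adjusted p = 2.86e-05). The 2 co-cultures did not overlap, but the highest HepG2 value lay close under the lowest Huh6 value. The receptor genes STAB1 (-1.25 ± 0.16) and CD36 (-0.63 ± 0.10) fell too, with overlapping groups, and were named after their values were seen. The phagocytic kinases parted: AXL had a log2 fold change of 0.73 ± 0.11 and MERTK of -0.30 (adjusted p = 2.75e-05 and 7.51e-05). LRP1, an endocytic receptor reported to bind midkine, had 1600, 1535 and 2052 CPM with HepG2 and 1413, 1430 and 1446 CPM with Huh6 (0.26 ± 0.08, adjusted p = 0.0167). The adjusted p of LRP1 was 0.0972 without HepG2 co-culture library 3, 0.0637 without Huh6 co-culture library 1 and 0.0709 without Huh6 co-culture library 3, at 0.19, 0.25 and 0.24 on the log2 scale. Of 6 genes for midkine and its reported receptors that were not set apart, 1 was higher and 1 lower, while 24.4% of all genes not set apart were called in either direction. Midkine itself (MDK) was set apart, with 149, 184 and 154 CPM with HepG2 and 123, 136 and 118 CPM with Huh6 (0.37 ± 0.08, adjusted p = 0.000758).

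On the list of liver X receptor targets and sterol efflux, 4 of 5 genes not set apart were higher with HepG2 (8.36% of all such genes were) and none lower. Of its 6 set-apart genes 4 were higher and 1 lower, against 19 and 14.3% of all set-apart genes. APOE, the lipid carrier that macrophages secrete, had 12450, 17660 and 18030 CPM with HepG2, 10880, 14880 and 13710 CPM with Huh6 and 10680 to 14050 CPM alone, with overlapping groups (0.28 ± 0.06, adjusted p = 0.00121). APOC1 (0.41 ± 0.07), PLTP (0.21 ± 0.07) and NR1H3 (0.42 ± 0.07), which encodes the liver X receptor alpha, were the others. PLTP lost its call without HepG2 co-culture library 3 (0.17, adjusted p = 0.0878), Huh6 co-culture library 1 (0.21, adjusted p = 0.0632) or Huh6 co-culture library 3 (0.19, adjusted p = 0.0784). GPNMB, a lysosomal glycoprotein of lipid-laden macrophages, gave 0.31 ± 0.11 (adjusted p = 0.0373). It lost its call without HepG2 co-culture library 3 (0.24, adjusted p = 0.141), Huh6 co-culture library 1 (0.27, adjusted p = 0.134) or Huh6 co-culture library 2 (0.33, adjusted p = 0.066). The adjusted p of GPNMB was 0.296 without the replicate block and 0.107 with DESeq2. Of 12 lipid-associated macrophage genes not set apart, 3 were higher and 3 lower, against 8.36 and 16% of all such genes. The lysosome list had 2 genes higher and 3 lower of 20, about the 24.4% called among all genes not set apart, among them the protease gene CTSH (0.31) and the proton pump subunit gene ATP6V0D1 (-0.37). After subtraction 8 of the 20 were higher and 1 lower, against 15.8 and 8.44% of all genes not set apart. The complement factor D gene CFD had 218, 290 and 303 CPM with HepG2, 132, 171 and 184 CPM with Huh6 and 91.4 to 132 CPM alone (0.73 ± 0.10, adjusted p = 2.61e-06). Of 7 complement genes not set apart, 1 was higher, CFD, and 2 were lower, against 8.36 and 16% of all such genes. Their median log2 fold change was -0.34.

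Several class I antigen presentation genes were higher with HepG2. HLA-E, a class I molecule recognised by natural killer cell receptors, had 603, 680 and 732 CPM with HepG2, 466, 548 and 528 CPM with Huh6 and 500 to 585 CPM alone. The 2 co-cultures did not overlap, at a log2 fold change of 0.39 ± 0.06 (adjusted p = 1.1e-05) and of 0.52 after subtraction. HLA-B, HLA-C and HLA-F gave 0.23 to 0.43 on the log2 scale with overlapping groups, and were named after their values were seen. NLRC5, which activates class I genes, had a log2 fold change of -0.42 (adjusted p = 0.000253). These HLA genes are near copies of each other, and alleles of THP-1 and of the tumour lines cannot be told apart in the counts. Interferon-stimulated genes had 2 of 15 higher, IFI6 (0.26) and STAT2 (0.21), against 8.36% of all genes not set apart, and none lower.

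Of 15 immediate early genes not set apart 4 were higher, among them KLF2 and JUN, and 1 lower (8.36 and 16% of all genes not set apart). KLF2, a transcription factor that restrains macrophage activation, had 23.3, 33.6 and 30.1 CPM with HepG2, 12.8, 17.4 and 16.7 CPM with Huh6 and 11.8 to 12.1 CPM alone (0.88 ± 0.10, adjusted p = 3.22e-07). BBC3, the pro-apoptotic PUMA, had 81.5, 78.7 and 65.4 CPM with HepG2, 42.8, 42.5 and 39.7 CPM with Huh6 and 46.1 to 57.6 CPM alone (0.85 ± 0.08, adjusted p = 3.9e-09). The kinase PIM1 rose by 0.58, the glucocorticoid-induced TSC22D3 by 0.62 and the immediate early gene JUN by 0.42 on the log2 scale. The vitamin D receptor gene VDR had a log2 fold change of -0.86 (adjusted p = 6.36e-07), the stress gene CHAC1 -0.60 and the gelatinase gene MMP2 -0.64. MT1G, a metal-binding metallothionein, fell by 1.05 (adjusted p = 0.00543), and 3 of the 4 set-apart genes on its list were lower (14.3% of all set-apart genes were), one of them the zinc transporter gene SLC30A1. The metallothionein copies are alike in sequence. Of the integrins and adhesion genes 5 of 16 were higher and 3 lower (8.36 and 16% of all genes not set apart), led by ITGA3 (0.62) and including ITGAX (0.34), the CD11c subunit. After subtraction 8 of the 16 were higher and 2 lower, against 15.8 and 8.44% of all genes not set apart.

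The set-apart genes with the largest increases were led by ALB, which encodes albumin. ALB had 812, 987 and 914 CPM with HepG2 and 0.19, 0.52 and 0 CPM with Huh6, and it reached 6053 CPM in HepG2 cells and 2.89 CPM in Huh6 cells. IGFBP1, FGG, FGA, PLA2G2A, AMBP, ITIH3 and CPLX2 followed, and each was at least 149 CPM in HepG2 cells and at most 1.25 CPM in THP-1 alone. Among the set-apart genes that were lower, the TGF-beta regulator SKIL had 15.13, 13.58 and 17.03 CPM with HepG2, 36.2, 37.2 and 37.1 CPM with Huh6 and 56.2 to 68.6 CPM alone (-1.27 ± 0.12, adjusted p = 1.51e-08). SPTBN5, MT1F and the transporter gene SLCO2B1 gave -1.41, -1.21 and -1.21. The keratin gene KRT19 had 4.96, 8.38 and 6.99 CPM with HepG2, 37.7, 12.2 and 8.74 CPM with Huh6 and no count alone. Its log2 fold change of -1.42 became -0.62 (adjusted p = 0.264) without Huh6 co-culture library 1, the one with the most tumour RNA, and -1.005 (adjusted p = 0.108) without HepG2 co-culture library 1. KITLG, LIPG and BAMBI were higher in the Huh6 line than in the HepG2 line, at 303 to 600 CPM in Huh6. The part of tumour RNA in these differences was not tested. LIPG gave -1.08 as deposited and -0.41 (adjusted p = 0.23) after subtraction. BAMBI gave -0.62 (adjusted p = 0.0784) without Huh6 co-culture library 1, against -1.07 with it.

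The same comparison with iMDK-treated tumour cells used 12 other libraries. These also entered the gene filter, scaling and fit behind the untreated results, so the untreated and iMDK results are not fully separate. At 5 µM, 248 genes not set apart were higher (3.35%) and 502 lower (6.78%) with HepG2 than with Huh6. At 10 µM, 213 were higher (2.88%) and 185 lower (2.5%). Without the block 208 and 101 genes were called at 5 and 10 µM. The 750 called at 5 µM (10.1%) became 325 and 498 without HepG2 libraries 1 and 2 of that dose, and 363, 438 and 499 without Huh6 libraries 1, 2 and 3. The 398 called at 10 µM (5.38%) became 249 without HepG2 library 3, and 226 and 263 without Huh6 libraries 1 and 3. Of the 619 genes higher without iMDK, 88.9% had the same sign at 5 µM and 88.5% at 10 µM, with 26.5 and 22.3% called again. Of the 1186 lower genes, 92.7 and 84.7% had the same sign, with 32.1 and 12.9% called again. The same-sign share over all genes not set apart was not measured. The median log2 fold change over the 619 genes was 0.46 without iMDK, 0.21 at 5 µM and 0.19 at 10 µM, and over the 1186 genes -0.33, -0.18 and -0.11. The tumour RNA shares narrowed as well, to 5.01 ± 0.89% with HepG2 and 0.23 ± 0.04% with Huh6 at 5 µM, and to 2.61 ± 0.92% and 0.17 ± 0.02% at 10 µM (SD, n = 3 each). The part of that narrowing in the smaller differences was not tested. The 619 and 1186 genes were chosen by the untreated difference, and such a choice by itself favours smaller medians in other libraries.

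**Figure D5:**
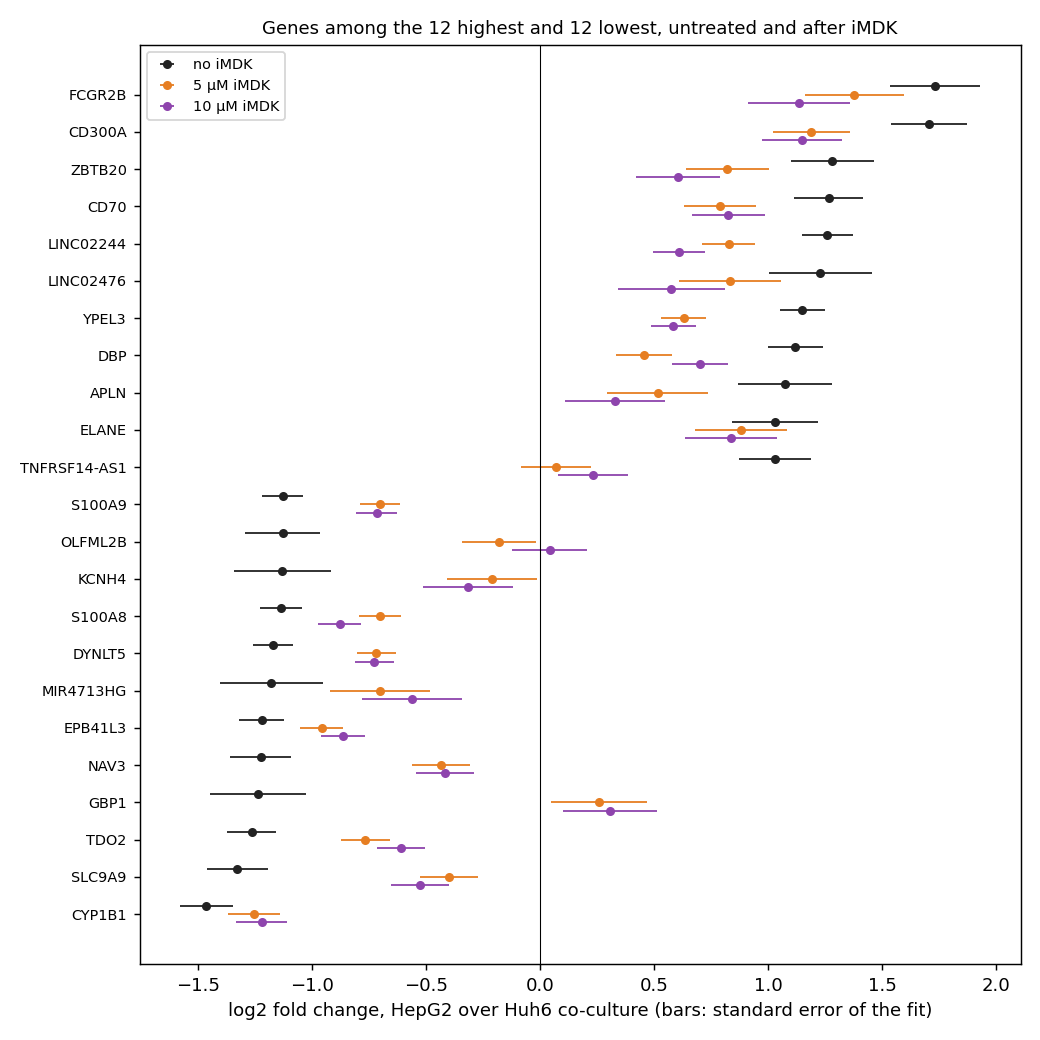
Log2 fold change, HepG2 over Huh6 co-culture, of genes among the 12 highest and 12 lowest, without iMDK and after 5 and 10 µM iMDK. Points are estimates and bars standard errors of the fit. FCGR2B, CD300A, CYP1B1 and EPB41L3 stay far from 0 at both doses, and GBP1, OLFML2B and TNFRSF14-AS1 lie closer to 0 with iMDK than without.

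FCGR2B was higher with HepG2 at 5 µM (log2 fold change 1.38, adjusted p = 6.13e-05) and 10 µM (1.14, adjusted p = 0.00127), and CD300A at both (1.19 and 1.15). CYP1B1 stayed lower (-1.25 and -1.22), as did TDO2 (-0.77 and -0.61), S100A8 (-0.70 and -0.88) and IL1B (-1.11 and -0.71). MXI1 kept 0.57 and 0.59. Among cell-cycle genes, MCM4, a replicative helicase subunit, was the only one of 28 called at 10 µM, where 1.41% of set-apart genes were lower (-0.31, adjusted p = 0.0343), and MKI67 gave -0.33 (adjusted p = 0.105) and -0.03 (adjusted p = 0.935). For hypoxia genes HepG2 library 1 stood high at 10 µM: LDHA had 454, 228 and 248 CPM with HepG2 and 288, 237 and 249 CPM with Huh6.

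Whether the HepG2 minus Huh6 difference changed with iMDK was tested directly, with the 6 untreated libraries shared by both dose tests. At 5 µM it rose for 7 genes (0.0946%) and fell for 3 (0.0405%) of those not set apart, and at 10 µM it rose for 66 (0.892%) and fell for 15 (0.203%). CD163 was an example at 10 µM, with 21.4, 10.1 and 14.9 CPM with HepG2 and 18.6, 11.3 and 13.5 CPM with Huh6, and a change of 0.77 on the log2 scale (adjusted p = 0.0157). The scavenger receptor gene CD36 changed by 0.60 (adjusted p = 0.0307). PIM1 changed by -0.57 at 5 µM and -0.60 at 10 µM (adjusted p = 0.0325 and 0.00834), and BBC3 by -0.63 at 10 µM (adjusted p = 0.00405). Without the replicate block 1 gene was called at each dose.

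SIGLEC1, an interferon-inducible sialic acid receptor of macrophages, was chosen after its values were seen. It had 57.7, 62.2 and 71.6 CPM with HepG2 and 59.3, 62.4 and 70.8 CPM with Huh6 without iMDK, at a log2 fold change of -0.01 (adjusted p = 0.974), and 33.1 to 45.0 CPM alone. At 10 µM it had 135, 102 and 98.4 CPM with HepG2 and 44.1, 51.4 and 42.1 CPM with Huh6 (1.29 ± 0.13, adjusted p = 2e-07). The change was 1.34 at 5 µM (adjusted p = 0.003) and 1.30 at 10 µM (adjusted p = 0.00158). Of the 15 interferon-stimulated genes not set apart, 6 were higher and none lower at each dose, where 3.35% (5 µM) and 2.88% (10 µM) of all genes not set apart were higher. IFI27 was among them, at 4.98, 6.02 and 5.39 CPM with HepG2 and 0.30, 1.59 and 1.24 CPM with Huh6 at 5 µM, but the change from the untreated difference did not pass for IFI27 (adjusted p = 0.104) or IFI44 (adjusted p = 0.147).

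Against THP-1 alone, 752 genes not set apart were higher (10.2%) and 1524 lower (20.6%) with HepG2, while 174 were higher (2.35%) and 203 lower (2.74%) with Huh6. These 2 comparisons share the 3 monoculture libraries, so their values are only set side by side. For the 619 genes higher with HepG2 than with Huh6, the median log2 fold change against monoculture was 0.43 with HepG2 and -0.04 with Huh6. For the 1186 lower genes it was -0.35 with HepG2 and -0.02 with Huh6. The gap between the 2 medians of each set follows from how its genes were chosen. EPB41L3 had log2 fold changes against monoculture of -2.23 with HepG2 and -1.01 with Huh6, and CCL24, an eosinophil-attracting chemokine gene, 1.07 and 0.65. The 2276 genes called with HepG2 (30.8%) became 1380 without the block. The 377 called with Huh6 (5.09%) became 193 without Huh6 co-culture library 1, 194 without monoculture library 1 and 72 without the block. In these sorted bulk samples, fewer cells with a transcript and less of it per cell cannot be told apart.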

How the data were processed

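RNA was sequenced from 21 THP-1 and 31 tumour-line libraries. Per the submitters' processing notes, STAR 2.7.3a, SAMtools 1.16.1, featureCounts and edgeR 3.36 were used with GRCh38. The sources name neither the annotation nor the strand setting. The deposited values used are raw counts per gene, which the authors did not normalize. All per-sample columns were mapped to samples (0 left unused).

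Genes were filtered by edgeR's filterByExpr, scaled by TMM and fitted with edgeR 4.0.16 (R 4.3.3) over all 21 THP-1 libraries, with 7 groups and the replicate number as block (12 residual degrees of freedom). No label says what same-numbered libraries share, so the pairing by replicate number is an assumption. Deviations of same-numbered HepG2 and Huh6 co-cultures correlated at 0.53, 0.169 and 0.279 over 9153 genes. Standard errors are the log2 fold change divided by the root of its F. Tumour reads were estimated as the share in the report times the tumour line's CPM at the same iMDK dose, and subtracted; this takes tumour cells in co-culture to express as they do alone. The fit was tested on simulated data. The floor of 3 counts covers counting error only, while the standard errors of the fit also hold the spread between libraries.

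Named genes among those not set apart passed adjusted p 0.05 with a mean log2 CPM of at least 2, did not overlap between groups and kept their call after subtraction: the 12 highest, the 12 lowest and up to 4 per list over 44 lists, with 8 set-apart genes per direction and a fixed set of macrophage genes. Other list members were named after their values were seen. The members and lists were chosen with earlier results of these data known. DESeq2 1.42.0, other scalings, no filter, no block, 6 libraries only and leaving out each library were alternatives. Some genes are not reported here.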

Additional observations from a re-analysis of the deposited data

Results flagged for a closer look

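The difference between HepG2 and Huh6 co-cultures changed with iMDK for 14 of the genes named by the fixed rule that were not set apart, by the test of that change itself (edgeR quasi-likelihood test, adjusted p below 0.05, 3 libraries per group). Each value below is the log2 difference with iMDK minus the log2 difference without it, and the untreated libraries are shared by both doses. At 5 µM the change was 1.49 for GBP1, 0.93 for SLC9A9, -0.57 for PIM1 and -0.51 for JUN. At 10 µM it was 1.54 for GBP1, 1.17 for OLFML2B, 0.81 for NAV3, 0.80 for SLC9A9, 0.77 for CD163, 0.65 for TDO2, 0.42 for SIRPA and 0.32 for ATP6V0D1. It was -0.65 for LINC02244, -0.63 for BBC3, -0.60 for PIM1, -0.57 for YPEL3 and -0.52 for TSC22D3. For these 14 genes the sign is opposite to that of the untreated difference. Most were named for that untreated difference, which the change subtracts, so the choice itself favours an opposite sign. The set-apart genes SPTBN5 (1.46 at 5 µM and 1.30 at 10 µM) and ITIH3 (-2.68 at 10 µM) also passed, as did SIGLEC1 at both doses and CD36 at 10 µM, which were chosen after their values were seen. The tumour RNA share differed between these groups too, and its part in the changes was not tested.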

How the results depend on the processing

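Of the 96 named genes tested, 89 were called and 77 of these kept their call when each of the 6 libraries was left out in turn. Without the replicate block 17 named genes lost their call, among them CD163, AXL, APOE, TLR2, IL1B and GPNMB. With 6 libraries and no block 20 lost it. LIPG turned to 0.67 (adjusted p = 0.389) when the highest marker ratio set the subtraction, an alternative chosen after seeing the data. Genes not set apart that were higher numbered 619, and 294 without the replicate block, 269 with 6 libraries and no block, 1164 after subtraction, 1635 with the highest ratio and 158 (of 1730 genes) when a stricter share of the monoculture level set genes apart. The 1186 lower genes became 581, 314, 623, 481 and 269 in the same order, 752 with 6 libraries and the block, and 735 without both libraries numbered 1. Set-apart genes higher (1539) became 1017 with 6 libraries and no block, 881 after subtraction and 684 with the highest ratio. Set-apart genes lower (1162) became 591 without the block, 714 and 327 with 6 libraries with and without it, 1909 after subtraction, 2942 with the highest ratio and 524 without both libraries numbered 1. Calls in either direction without the block were 208 at 5 µM and 101 at 10 µM (110 and 42 with 6 libraries), 1380 for HepG2 and 72 for Huh6 against monoculture, and 1 and 1 for the change with iMDK. Leaving out 1 library gave 425 to 702 higher and 712 to 1043 lower genes, 1236 to 1493 and 674 to 1083 set-apart ones, 325 to 593 at 5 µM, 226 to 400 at 10 µM, 1696 to 2090 for HepG2 and 193 to 366 for Huh6 against monoculture. The mean HepG2 tumour share was 5.02% over all genes above 100 CPM in the line and under 0.1 CPM in monoculture. Subtraction moved the median of the genes not set apart to 0.08, and to 0.15 with the highest ratio, where 77.3% of calls were higher. The cause of these shifts was not tested. With 3 libraries per group and a tumour share known only within the spread of the markers, small differences remain uncertain in sign.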
